A study of Mus musculus with 10 samples.

Results

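Frizzled genes encode the cell-surface receptors of WNT signals. The 10 mouse members, Fzd1 to Fzd10, were taken by symbol from an expression table of 37298 gene rows of hair follicle stem cells (HFSCs), the resting cells of the bulge that renew the hair. They filled 11 rows, because Fzd10 is listed under 2 Ensembl identifiers at 1 locus. SOX9 peaks within 50 kb of each locus were added from 3 deposited peak lists. SOX9, a DNA-binding factor with an HMG box, is made by bulge stem cells, and the study asked which genes depend on it in these cells and where it binds.

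RNA was sequenced from 4 libraries of cells from telogen back skin, the resting phase of the hair cycle, sorted as integrin α6-high, CD34+, ScaI- and YFP+. The strain is given as C57BL6, mixed. Of the libraries, 2 are labelled Sox9 knockout (title "cKO") and 2 control; the control titles read "Het", while their genotype field reads wild type. Animals of both genotypes received RU486, which activates the Cre recombinase CrePGR. The labels name neither the promoter that drives it nor the number of mice behind a library. Both replicate 1 libraries come from males aged 75 days, given RU486 from day 48 to day 61, and both replicate 2 libraries from females aged 80 days, given it from day 53 to day 66. Sox9 ChIP used 2 libraries of HFSCs (integrin α6-high, CD34+, ScaI-) and 1 of interfollicular epidermal (IFE) cells, the skin surface between follicles (integrin α6-high, CD34-, ScaI-), all from CD-1 females without treatment, aged 52 to 60 days.

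A Frizzled receptor spans the membrane several times and binds the lipid-bearing WNT ligand with a cysteine-rich domain outside the cell. Together with the co-receptors LRP5 or LRP6 it recruits Dishevelled and stabilises β-catenin; with other partners it orients cells within the plane of a tissue. By sequence the family falls into the groups Fzd1, Fzd2 and Fzd7; Fzd5 and Fzd8; Fzd4, Fzd9 and Fzd10; and Fzd3 and Fzd6. In the hair follicle, WNT signals are known for starting new growth from resting stem cells, and Fzd6 is known for setting the direction in which hairs lie.

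Values were deposited as FPKM, fragment counts relative to transcript length and to all mapped fragments, which allows levels to be compared between genes. FPKM sums lay between 555420 and 903766 per library, and the depth in reads is unknown. Sox9 itself had 71.3 (replicate 1) and 80.5 FPKM (replicate 2) in libraries labelled cKO and 82.7 and 46.5 in controls, so it was not lower in both pairs. The value covers the whole gene, and the deleted part was not measured separately. Directions therefore follow the labels, and the libraries are called "labelled cKO". Of 10 bulge markers, Krt15 lay between 8703 and 10894 FPKM. The sorting markers Cd34 and Itga6, the gene of integrin α6, lay between 459 and 680 and between 58.2 and 151. Itga6, Nfatc1, Lgr5 and Tcf7l1 were lower in both replicate 2 libraries than in both replicate 1 libraries. Krt14 was higher, and the other bulge markers overlapped between replicates. All 5 endothelial markers stayed under 1 FPKM in every library, as did 4 of 6 fibroblast, 3 of 6 melanocyte and 2 of 5 immune markers. None of 4 suprabasal epidermis markers was that low, and their sums reached 2505 to 7275 FPKM.

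The sorted libraries held transcripts of the whole family, in amounts that ranged widely between members. Which cells in them carried the transcripts was not measured. Fzd2 was the highest: the controls held 114 and 112 FPKM (replicates 1 and 2, the order used from here on) and the libraries labelled cKO 63.0 and 66.4. Its mean over the 4 libraries exceeded that of 91.3% of the 14455 genes tested (mean FPKM of at least 1). Fzd7 followed with 89.9 and 57.4 FPKM in the controls and 50.3 and 32.6 in the libraries labelled cKO, and Fzd1 with 40.4 and 40.8 against 33.2 and 38.5. These 3 members of one sequence group thus led the family.

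The planar polarity receptors Fzd3 and Fzd6 came next. Fzd3 stood at 25.5 and 9.41 FPKM in the controls and at 26.3 and 16.3 in the libraries labelled cKO; Fzd6 stood at 23.8 and 13.1 against 26.1 and 17.1. Fzd5, a receptor close to Fzd8 in sequence, lay between 5.06 and 9.82 FPKM and Fzd9, whose human counterpart lies in the region deleted in Williams syndrome, between 1.53 and 13.5. The remaining receptors were low: Fzd8 lay between 1.64 and 6.26 FPKM, the Fzd10 rows (ENSMUSG00000081683 first, ENSMUSG00000089856 second) between 1.63 and 3.71 and between 1.37 and 3.97, and Fzd4 between 0.685 and 1.79. Reads of Fzd10 may have been split between its rows, which share their coordinates, so each row alone is uncertain.

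In the order of mean levels, Fzd2 was above Fzd7, Fzd1 above Fzd6, and Fzd3 above Fzd5 in 4 of 4 libraries. Fzd7 was above Fzd1 in 3 of 4 and the first Fzd10 row above the second in 3 of 4. The neighbours Fzd6 and Fzd3, Fzd5 and Fzd9, Fzd9 and Fzd8, Fzd8 and Fzd10, and Fzd10 and Fzd4 were ordered either way in 2 of 4 libraries each, so their ranks did not hold across the libraries.

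**Figure D1:**
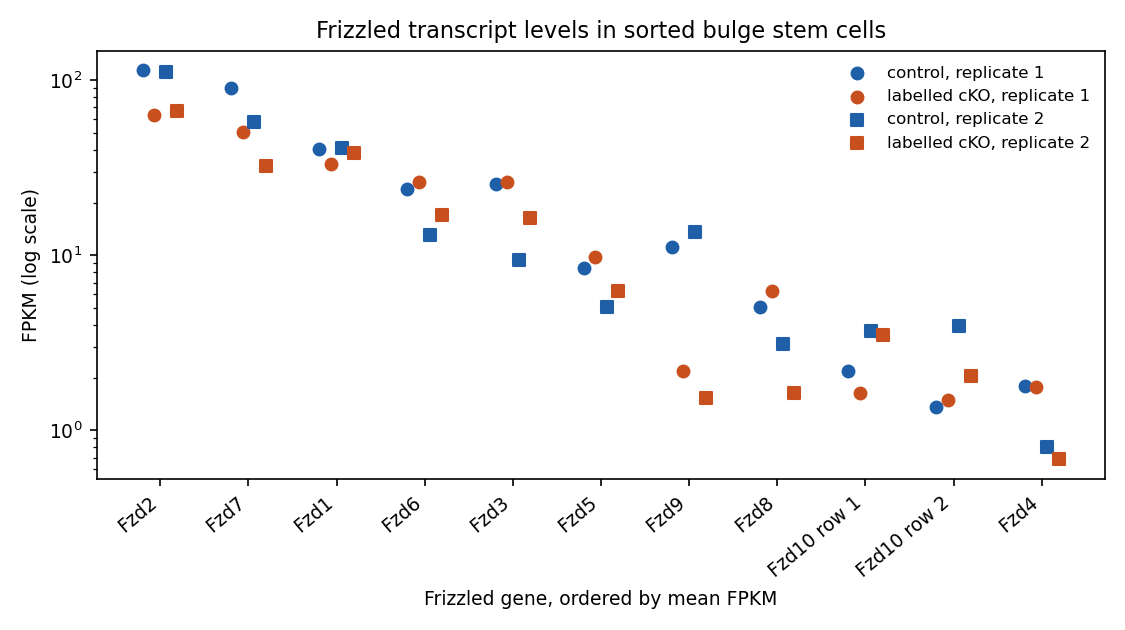
FPKM of each Frizzled row (vertical axis, log scale) in the 4 RNA libraries, with rows ordered by their mean; circles are replicate 1, squares replicate 2, blue control and orange labelled cKO. Fzd2 lies highest at 63.0 to 114 FPKM and Fzd4 lowest at 0.685 to 1.79, and for Fzd9 both blue points stand far above both orange ones.

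Added over the 11 rows, Frizzled transcripts summed to 324 and 263 FPKM in the controls and to 222 and 186 in the libraries labelled cKO. Both sums of the libraries labelled cKO lay below both control sums. Fzd1, Fzd2 and Fzd7 together made up 75.5% and 79.9% of the sum in the controls and 65.975% and 73.7% in the libraries labelled cKO. Fzd3 and Fzd6 took 15.2% and 8.57% in the controls and 23.6% and 17.9% in the libraries labelled cKO. Without Fzd2, Fzd7 and Fzd9, 3 members left out after their values were seen, the sums were 108 and 80.005 FPKM in the controls against 107 and 86.0, and the groups overlapped.

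**Figure D2:**
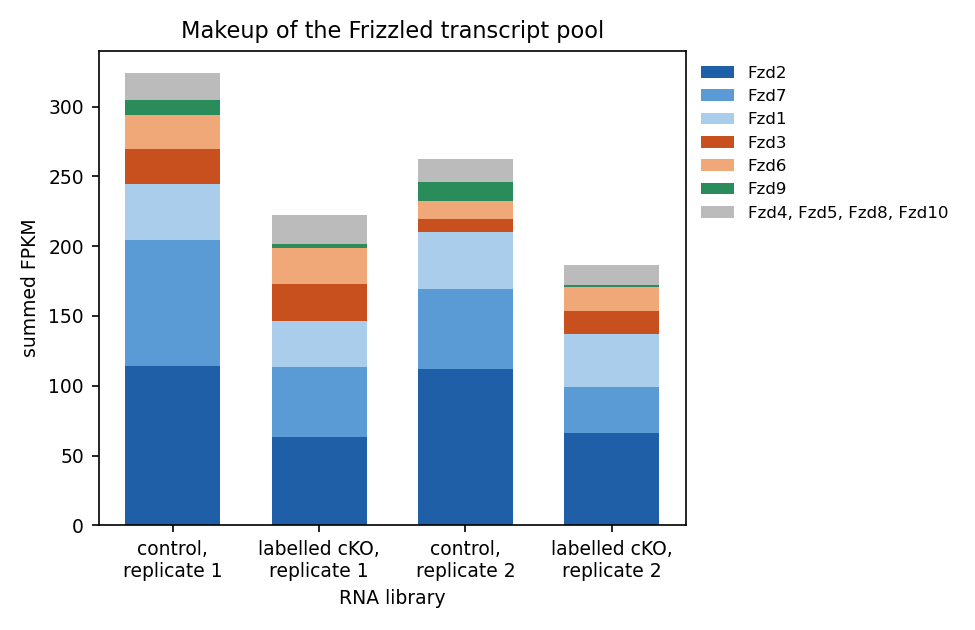
Stacked FPKM of the Frizzled rows in each RNA library, in order control and labelled cKO of replicate 1, then of replicate 2; each colour is a gene, and grey holds the 4 low members together. The columns reach 324 and 263 in the controls and 222 and 186 in the libraries labelled cKO, and the blue parts (Fzd2, Fzd7, Fzd1) make up most of every column.

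Sequence just upstream of the transcription start could be read for 6 of the 10 members, from the RefSeq promoter table of build GRCm38. Of these, 4 are shown because the results below turn on them: Fzd7 and Fzd9, which differed most between genotypes, and Fzd5 and Fzd10, which have SOX9 peaks at the upstream edge of the gene or just inside it. Each line gives the 250 bases before the start, 5′ to 3′ along the gene, in lower case. Capitals mark the letters AACAAT or ACAAAG on either strand (ATTGTT and CTTTGT on the reverse), short cores that SOX factors are known to bind; ACAAAG also shares its end, CAAAG, with the core of TCF factors. The windows are chr1:59481897-59482146 (+) for Fzd7, chr5:135251048-135251297 (-) for Fzd9, chr1:64737751-64738000 (-) for Fzd5 and chr5:128600856-128601105 (+) for Fzd10.
Fzd7: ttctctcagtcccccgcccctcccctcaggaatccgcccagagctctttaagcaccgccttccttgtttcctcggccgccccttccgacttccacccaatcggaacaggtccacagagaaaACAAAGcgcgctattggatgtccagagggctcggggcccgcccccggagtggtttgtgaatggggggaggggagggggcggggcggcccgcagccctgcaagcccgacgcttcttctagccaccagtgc
Fzd9: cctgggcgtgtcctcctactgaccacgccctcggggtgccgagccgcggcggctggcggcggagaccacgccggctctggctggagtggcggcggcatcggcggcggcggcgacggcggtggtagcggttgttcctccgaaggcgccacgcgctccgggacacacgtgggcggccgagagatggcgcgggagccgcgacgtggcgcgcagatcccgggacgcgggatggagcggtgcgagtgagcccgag
Fzd5: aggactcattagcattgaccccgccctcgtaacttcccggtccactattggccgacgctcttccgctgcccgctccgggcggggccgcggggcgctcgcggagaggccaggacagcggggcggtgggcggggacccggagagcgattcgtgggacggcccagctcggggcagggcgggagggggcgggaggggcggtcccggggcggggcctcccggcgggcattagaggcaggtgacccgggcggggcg
Fzd10: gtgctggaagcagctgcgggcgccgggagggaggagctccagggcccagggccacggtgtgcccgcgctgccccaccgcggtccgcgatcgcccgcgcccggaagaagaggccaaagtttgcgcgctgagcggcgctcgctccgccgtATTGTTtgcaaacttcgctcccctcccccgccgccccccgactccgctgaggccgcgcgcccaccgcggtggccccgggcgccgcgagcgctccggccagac

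Fzd7 holds 1 match of ACAAAG and Fzd10 1 match of AACAAT, while Fzd9 and Fzd5 hold neither. Of the members not shown, Fzd1 has 1 match of ACAAAG, in reverse, and Fzd4 none. Among 32851 promoter windows of the same length, 9.42% hold AACAAT and 16.5% ACAAAG, and 24% hold at least 1 of them. A match describes the letters only. The windows of Fzd9, Fzd5 and Fzd10 each have a GC content of 76.4%, higher than that of 97.0% of all windows, whose median is 52.4%. Fzd9 holds 42 CG dinucleotides, Fzd10 37 and Fzd5 32, against a median of 6 over all windows. Fzd7 has 65.2% GC and 17 CG dinucleotides, and Fzd1, at 51.2% GC, lies near the median.

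The comparison of genotypes asked which Frizzled genes differ between libraries labelled cKO and controls. Fzd9 was lower in the libraries labelled cKO by a wide margin, and Fzd2 and Fzd7 were lower by a smaller and nearly equal amount in both pairs. Fzd1 was slightly lower, Fzd3, Fzd5 and Fzd6 slightly higher, and the other members moved little or in opposite directions. Over all tested genes limma with genotype alone called none (0%; 93 genes had an unadjusted p under 0.05), and none of the 11 Frizzled rows (smallest adjusted p = 1.00; Fzd9 alone had an unadjusted p under 0.05, 0.000972). Adding the replicate number as a block, so that each library labelled cKO is set against a control of its own sex, age and treatment days, limma called 26 genes lower (0.18% of those tested) and 15 higher (0.104%). Fzd9 was the 1 Frizzled row among them.

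Fzd9 stood at 11.2 and 13.5 FPKM in the controls and at 2.18 and 1.53 in the libraries labelled cKO. Both control values lay above both others, 5.15-fold in pair 1 and 8.84-fold in pair 2. On the log2(FPKM + 1) scale, which understates changes of low genes, the difference was -1.94 and -2.52, with a mean of -2.23 ± 0.22 (moderated SE) and an adjusted p of 0.0252 in the blocked limma fit. Without the block the SE was 0.34 and the adjusted p 1.00. The blocked call ended with quantile normalization (-2.18, adjusted p = 0.120), with no mean trend (0.157) and with no filter on low values (0.969), and held in the other 6 blocked fits tried. The change lay at -1.34 with a pseudocount of 5 and -2.69 with 0.1, and between -2.40 and -2.07 with 1 library left out and no block. Fzd9 is a compact locus of 2.29 kb on chromosome 5 (mm9, 135724807 to 135727100; ENSMUSG00000049551).

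Fzd2 and Fzd7, close relatives that signal through β-catenin, fell short of the threshold over all genes. Fzd2 (ENSMUSG00000050288) was 1.81-fold lower in the library labelled cKO of pair 1 and 1.68-fold lower in pair 2, with log2 differences of -0.85 and -0.74. Fzd7 (ENSMUSG00000041075) was 1.79-fold and 1.76-fold lower, with differences of -0.82 and -0.80. Their mean changes were -0.80 ± 0.12 and -0.81 ± 0.12 (SE), and both had an adjusted p of 0.0766 with the replicate block. With a mean FPKM of at least 5 required (adjusted p = 0.0480) or a pseudocount of 5 (0.0309), both were past the threshold. Every other blocked limma fit left both short of it, and some moved them farther away. For Fzd2 and Fzd7 the adjusted p was 0.107 and 0.106 with a pseudocount of 0.1, and 0.181 and 0.184 with quantile normalization. It was 0.333 and 0.307 with no mean trend, and 0.969 for both with no filter on low values. Of all tested genes, 0.602% were lower in both pairs by at least the smaller difference of Fzd2, a bound set after its values were seen. Leaving out 1 library, with no block, put Fzd7 between -1.13 and -0.49 and Fzd2 between -0.83 and -0.76. Fzd1, the third of this group, showed -0.27 and -0.08 (mean -0.18 ± 0.13, adjusted p = 0.665 with the block).

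Fzd4 and Fzd10, grouped with Fzd9 by sequence, did not share its difference. Fzd4, which also serves as receptor of Norrin in blood vessels, stood at 1.79 and 0.802 FPKM in the controls and at 1.76 and 0.685 in the libraries labelled cKO. Its change of -0.05 ± 0.26 had an adjusted p of 0.964 with the block. The first Fzd10 row stood at 2.18 and 3.71 FPKM in the controls and 1.63 and 3.51 in the libraries labelled cKO, and the second at 1.37 and 3.97 against 1.497 and 2.04. Their changes of -0.17 ± 0.22 and -0.31 ± 0.28 had adjusted p of 0.837 and 0.732. At levels this low on the log2(FPKM + 1) scale, changes are understated.

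The planar polarity receptors pointed the other way without passing the test. Fzd3 gave 0.05 in pair 1 and 0.73 in pair 2 (mean 0.39 ± 0.19, adjusted p = 0.502 with the block), and without the replicate 2 control its difference turned to -0.28. Fzd6 gave 0.13 and 0.36 (mean 0.24 ± 0.15, adjusted p = 0.590). Fzd5, a receptor of the group with Fzd8, gave 0.20 and 0.27 (mean 0.23 ± 0.17, adjusted p = 0.666). Fzd8 gave 0.26 in pair 1 and -0.65 in pair 2. For all of these the genotype groups overlapped.

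In total, 6 rows were lower and 3 higher in both pairs, while 29.6% and 28.4% of all tested genes were so. Both libraries labelled cKO lay below both controls for 4 rows, Fzd1, Fzd2, Fzd7 and Fzd9, and above them for none; over all tested genes these shares were 8.42% and 5.47%. Fzd9 alone was at least 2-fold apart in both pairs, as were 0.277% of tested genes on the lower side. The median change over the 11 rows was -0.18, beside -0.01 over all tested genes. In bulk libraries, fewer cells of a kind and less RNA per cell cannot be told apart. Some marker sums moved with the labels: the 6 fibroblast markers summed to 16.9 and 8.64 FPKM in the controls and to 22.5 and 22.4 in those labelled cKO, mostly from Col1a2, with none at 0 in all libraries. The 3 sebocyte markers summed to 188 and 245 FPKM in the controls against 293 and 292, none at 0. Only the sums stood apart, since the groups overlapped for each single fibroblast and sebocyte marker. Col1a2 stood at 14.8 and 7.40 FPKM in the controls against 21.9 and 13.8, and Mgst1 at 96.9 and 200 against 164 and 251. Scd1 was lower in the library labelled cKO of pair 2 (40.3 against 44.0). The 10 bulge markers summed to 20245 and 19116 FPKM in the controls against 18388 and 22891, so their groups overlapped. Krt5, Krt14 and Krt15 made up most of these sums. Lhx2, a stem cell factor, was called lower with the block (359 and 195 FPKM against 114 and 87.1) and the other 9 were not called. Cd34 stood at 652 and 680 FPKM in the controls against 459.5 and 463. Nfatc1 (76.7 and 19.8 against 46.7 and 14.1) and Lgr5 (137 and 43.8 against 110 and 38.0) were lower in both pairs too. Itga6 was higher in both pairs, while Krt5, Krt14, Krt15, Sox9 and Tcf7l1 were lower in pair 1 and higher in pair 2. The part of all these markers in the Frizzled differences was not tested.

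**Figure D3:**
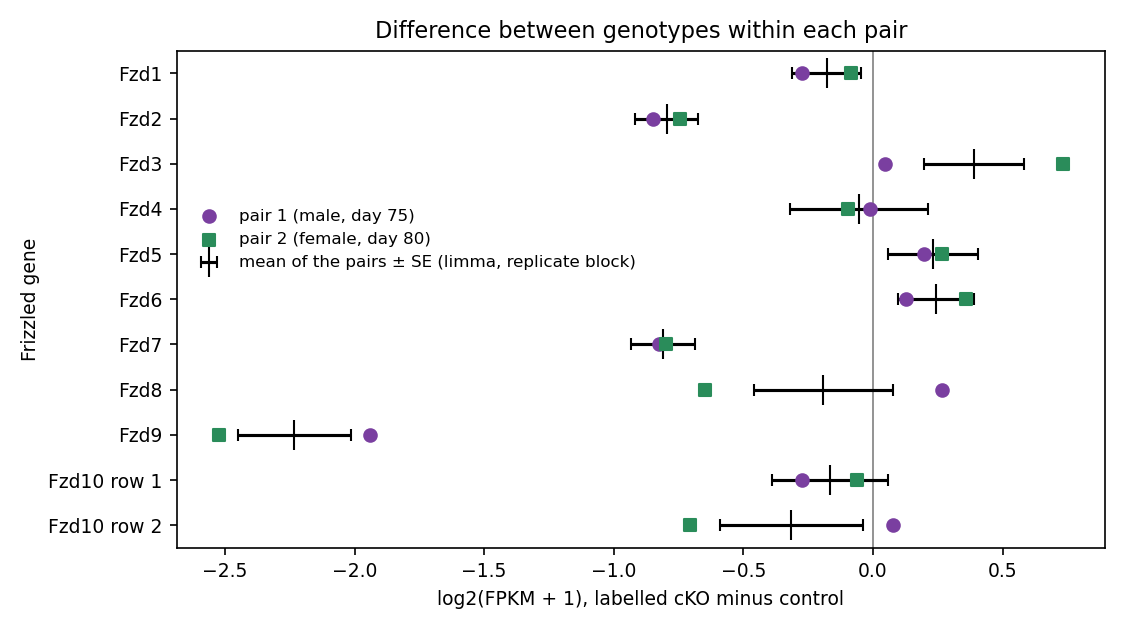
Difference of log2(FPKM + 1) between labelled cKO and control for each Frizzled row, in pair 1 (circles) and pair 2 (squares); the black mark is the mean and its bar the SE of limma with the replicate block. Fzd9 lies at -1.94 and -2.52, Fzd2 and Fzd7 lie between -0.85 and -0.74, and Fzd8 has its points on either side of 0.

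Levels also differed between the replicates, which differ in sex, age and treatment days at once, so that these cannot be told apart. Any difference in RNA quality or library preparation between the replicates would go with them as well, and was not tested. Fzd3 was lower in replicate 2 than in replicate 1 by -1.004 ± 0.19 (limma with genotype as a term, adjusted p = 0.00506), Fzd8 by -1.01 ± 0.27 (0.0184), Fzd6 by -0.70 ± 0.15 (0.00734), Fzd7 by -0.63 ± 0.12 (0.00577) and Fzd5 by -0.60 ± 0.17 (0.0241). The first Fzd10 row was higher by 0.67 ± 0.22 (0.0423) and the second by 0.68 ± 0.28 (0.0801). Fzd4 differed by -0.67 ± 0.26 (0.0711). Among all tested genes 24.1% were called lower and 25.8% higher, so a difference between replicates was common and 6 of 11 rows is near that background. Both replicate 2 libraries lay below both replicate 1 libraries for 5 rows (37.5% of tested genes) and above them for 2 (37.9%).

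In the fit used, Fzd2, Fzd9 and Fzd1 had the smallest differences between replicates. All of them were lower in both libraries labelled cKO than in both controls, and with the block Fzd9 alone was called. Fzd1 differed between replicates by 0.11 ± 0.13 (limma, adjusted p = 0.515). Fzd9 and Fzd2 differed by -0.04 ± 0.22 (adjusted p = 0.888) and 0.02 ± 0.12 (0.893). Removing a linear trend on locus span moved these to -0.40 (0.190) and -0.26 (0.123). The sign of both depended on the scaling, since quantile normalization gave 0.051 for Fzd9 and -0.39 for Fzd2, the latter past the threshold (adjusted p = 0.0403). It also ended the calls of Fzd5 (0.0735) and Fzd8 (0.0629). The span removal left Fzd3, Fzd5, Fzd6, Fzd7 and Fzd8 lower in replicate 2, added Fzd4 (-0.88, adjusted p = 0.0361) and ended the call of Fzd10 (0.37, 0.240). With the replicate 1 library labelled cKO left out, and then the replicate 1 control, limma was fitted between replicates without a genotype term. These fits leave 1 library in replicate 1, so only their differences are given here, in that order. The differences in these fits were -0.98 and -1.03 for Fzd3, -0.64 and -0.76 for Fzd6, -0.51 and -0.70 for Fzd5, -0.87 and -1.14 for Fzd8, 0.53 and 0.81 for the first Fzd10 row, and -1.04 and -0.21 for Fzd7. With any 1 library left out, the range was -1.37 to -0.64 for Fzd3 and -0.88 to -0.52 for Fzd6. For Fzd5 it was -0.74 to -0.47 and for Fzd8 -1.33 to -0.68. For the first Fzd10 row and Fzd7 the values above were the ends of the range. Marker sums differed between replicates too, without overlap. Suprabasal markers summed to 2505 and 2641 FPKM in replicate 1 (labelled cKO, then control) and 4662 and 7275 in replicate 2. Of them Krt1 was lower in replicate 2 within each genotype (473 and 551 against 387 and 482), but its replicates overlapped. Melanocyte markers summed to 47.3 and 42.7 against 14.8 and 17.4, mostly from Mitf (44.3 and 39.5 against 13.7 and 15.1), and Dct overlapped. Immune markers summed to 32.9 and 34.4 against 57.0 and 85.3, mostly from Cd74 (27.8 and 28.4 against 46.4 and 71.0), and Ptprc and Cd3e overlapped. None of these markers was at 0 in all libraries, and their part in the Frizzled differences was not tested.

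The 3 rows that ranged most widely over the libraries were Fzd9, Fzd8 and Fzd7. Likeness of pattern was measured as the Euclidean distance of log2(FPKM + 1), centred on the gene mean, over the 4 libraries. Nearest to Fzd9 were D0H4S114 (distance 0.18; 58.0 and 67.8 FPKM in the controls, 13.8 and 12.8 in the libraries labelled cKO), Grik1, a glutamate receptor subunit (0.50), and the small RNA SNORA5 (0.53), which is listed at 0 in both libraries labelled cKO. Nearest to Fzd8 were Chml (0.064), Slc15a1, a peptide transporter (0.114), and Gm15027 (0.144). Nearest to Fzd7 were Zfp365 (0.098), Prune2 (0.117) and Ecm1, a secreted matrix protein (0.131).

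Other genes of the WNT pathway were then described from 8 lists arranged by role. Of 82 genes in all, 53 were tested; 1 was called lower and 0 higher with the replicate block (0.18% and 0.104% of all tested genes), and 0 without it. In both pairs, 29 of the 53 were lower and 6 higher, beside 29.6% and 28.4% of all tested genes, and their median change was -0.13. Between replicates, limma called 26 of the 53 lower in replicate 2 and 1 higher, beside 24.1% and 25.8% of all tested genes. These lists were chosen with earlier results of these data known, so the counts are descriptive.

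No partner of Frizzled at the membrane was called. The co-receptors Lrp5 and Lrp6 gave -0.17 each (limma with the block, adjusted p = 0.713 and 0.745), from means of 20.7 and 17.0 FPKM. Ryk and Ptk7, which serve WNT signals apart from β-catenin, had means of 57.4 and 37.4 FPKM. The list of 7 tested receptors also holds Smo, a gene of the Hedgehog pathway and not a WNT receptor. Its median was -0.10, the value of Smo, with none called. Among 5 tested genes of receptor turnover, which remove Frizzled from the surface or protect it, the median was -0.42 with none called: the R-spondin receptors Lgr4 and Lgr6 gave -0.46 (0.366) and -0.55 (0.402), and Lgr5 had a mean of 82.2 FPKM.

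Of the secreted factors, 1 antagonist was called lower and no ligand in either direction. The 10 tested genes of WNT ligands and their secretion had a median of 0.07. Among them Wnt4 gave 0.52 ± 0.14 (limma with the block, adjusted p = 0.326) and Wnt11 0.91 ± 0.23 (0.274), while Wls, which carries WNTs to the surface, had a mean of 45.3 FPKM. Of 13 secreted antagonists listed 4 were tested, and these gave negative differences in both pairs (median -0.91). Sostdc1, an antagonist of BMP and WNT signals, was called, at 163 and 112 FPKM in the controls against 78.1 and 50.7 (change -1.09 ± 0.12, adjusted p = 0.0282 with the block); like Fzd9 it was not called with quantile normalization, no mean trend or no filter. Wif1, which binds WNTs outside the cell, gave -0.90 (0.139), Sfrp1, which carries a Frizzled-like domain, -0.91 (0.219; mean 118 FPKM) and Dkk3 -0.36 (0.383; mean 179 FPKM).

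Downstream of the receptors, no gene of the relay, the nucleus, feedback or planar polarity was called. The 9 relay genes had a median of -0.07, with Dvl3 at -0.31 (limma with the block, adjusted p = 0.593), Gsk3b at -0.21 (0.661) and the most abundant were Ctnnb1, encoding β-catenin, and the kinase gene Csnk1a1, with means of 376 and 130 FPKM. The 7 nuclear factors had a median of -0.25, with Tcf7l2 at -0.60 (0.317) and Bcl9 at -0.52 (0.388), and the β-catenin partners Pygo2 and Bcl9l had the highest means, 27.6 and 17.2 FPKM. The 5 feedback targets had a median of -0.18, with Nkd1, an inhibitor of Dishevelled, at -0.78 (0.388) and Myc at 0.52 (0.470); Myc and the cyclin gene Ccnd1 had the highest means, 79.4 and 27.6 FPKM. The 6 planar polarity partners had a median of -0.27, with Celsr2 at -0.62 (0.231) and Vangl1 at -0.39 (0.401); Prickle2 and Celsr2 had the highest means, 30.0 and 25.8 FPKM.

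**Figure D4:**
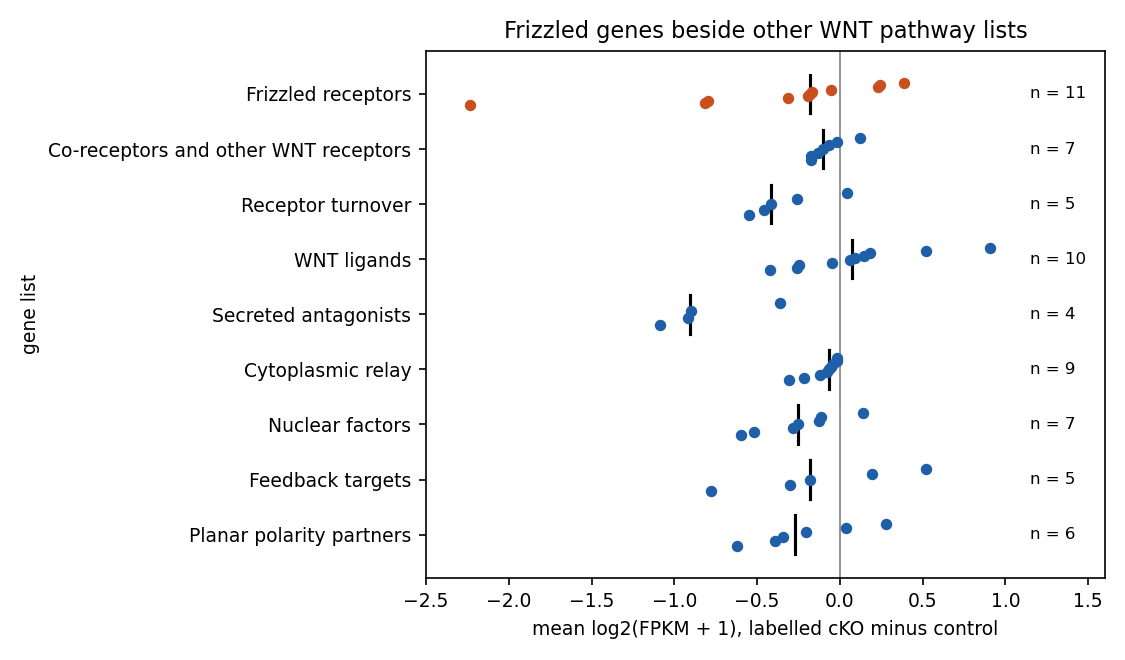
Mean difference of log2(FPKM + 1) between labelled cKO and control for the tested members of each list; each point is a gene, black bars are medians, and n is the number of points. Frizzled rows (orange) have a median of -0.18 with Fzd9 at -2.23, and the 4 secreted antagonists have the lowest median of the lists shown, -0.91.

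SOX9 peaks near the Frizzled loci were counted next, in the mm9 coordinates of the files. Within 50 kb, 8 of 10 loci had a peak in at least 1 HFSC list, against 38.1% of the 28050 distinct loci of the table and 58.3% of the 12101 loci of tested genes. A peak in both HFSC lists, overlapping by at least 1 bp, stood near 4 loci, Fzd2, Fzd3, Fzd6 and Fzd10, against 15% of all loci and 24.5% of tested ones. IFE peaks stood near 4 loci, Fzd5, Fzd6, Fzd7 and Fzd10 (32.2% of all loci and 51.2% of tested ones). In HFSC list 1 alone 6 loci had a peak within 50 kb (33.8% of all loci, 51.6% of tested ones) and in list 2 alone 6 (22.2% and 36.3%); with each peak required to cover at least 0.5 of the other, 4 loci had a shared peak (14.2% and 23.2%). Within 10 kb 4 loci had an HFSC peak (21.1%) and within 100 kb 9 (50.3%), against 38.6% and 70.5% of tested loci. At the locus itself, 4 had one from HFSCs (Fzd1, Fzd2, Fzd6 and Fzd10; 14.4% of all loci, 29.3% of tested ones) and 4 from IFE cells (12.2% and 25.4%). Fzd4 and Fzd8 had no peak in any list within 50 kb. The lists hold 8181 and 2989 peaks in HFSCs and 5209 in IFE cells, with no heights, so a missing peak does not show that binding was absent.

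Fzd2, the most abundant Frizzled, had the most peaks shared by both HFSC lists, and no IFE peak in the window. Its 4 shared peaks lie, by list 1, across the lower edge of the locus at chr11:102465375-102465985, 5.35 kb above the locus at chr11:102474726-102475620, 30.5 kb above it at chr11:102499899-102500662, and 47.9 kb below it at chr11:102417275-102417841. The locus itself spans 102465744 to 102469372, a length of 3.63 kb. The farthest peak touches another gene, Gpatch8, and the one at 30.5 kb lies nearer to 2810433D01Rik. At least 4 shared peaks with no IFE peak within 50 kb were found at 2 of the 28050 loci (0.00713%), Fzd2 and Fam117a; this condition was set after the peaks of Fzd2 were seen. At least 4 shared peaks, whatever the IFE list holds, were found at 0.271% of loci. For these conditions the share among loci of tested genes was not counted.

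Fzd6 and Fzd10 carried a peak of all 3 lists at the gene, as did 3.75% of all loci. The share among loci of tested genes, higher wherever it is given above, was not counted for this. At Fzd6 the peaks overlap the lower edge of the locus (list 1, chr15:38837408-38838276; list 2, chr15:38837491-38838129; IFE, chr15:38837482-38838274). At Fzd10 they lie inside the gene, with centres 629.5, 689.5 and 585.5 bp past its upstream edge (list 1, chr5:129107114-129107581). A further Fzd10 peak, 45.4 kb above the locus, is shared by HFSC list 1 and the IFE list. Fzd3, the longest locus at 61.4 kb, had 1 shared HFSC peak, 28.2 kb below it (list 1, chr14:65790817-65791624).

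Fzd5 and Fzd7 had an IFE peak over the upstream edge of the gene and no HFSC peak at the locus, as did 4.34% of all loci for an IFE peak anywhere in the locus. Among loci of tested genes the share was not counted. The peak of Fzd5 is at chr1:64783930-64784573, with its centre 72.5 bp inside the gene, and that of Fzd7 at chr1:59538700-59539428, with its centre 74 bp inside. In HFSCs, Fzd5 had 2 peaks of list 1 alone, 18.1 and 19.6 kb upstream, and Fzd7 had 1 peak of list 2 alone, 32.7 kb upstream. The GRCm38 windows printed above for these genes were not placed on mm9, so whether they lie within the peaks is not given.

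The 4 members whose libraries labelled cKO lay below both controls differed in their peaks. Fzd2 had 4 shared HFSC peaks as given above. Fzd1 had a peak of list 2 alone, inside the gene, with its centre 896.5 bp past the upstream edge (chr5:4756941-4757698), and Fzd7 the peak of list 2 alone. Fzd9, with the largest difference of the family, had a peak of list 1 alone, 25.2 kb upstream (chr5:135752334-135752665), and none in the IFE list. Fzd3, Fzd6 and Fzd10 had shared HFSC peaks and no called difference between genotypes. The ChIP and RNA cells came from mice of different strains and ages.

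Farther out, between 50 and 100 kb, Fzd7 had 2 peaks shared by both HFSC lists, 79.5 and 95.2 kb beyond its downstream end (list 1, chr1:59623243-59624321 and chr1:59638998-59639715), both within the locus of another gene, Gm973. Fzd9 had a shared HFSC peak 99.2 kb downstream (list 1, chr5:135624931-135625607), within Tbl2, and a peak of list 2 and the IFE list 61.4 kb downstream, within its neighbour Baz1b. For Fzd4 the 1 peak within 100 kb was of list 1 alone, 53.8 kb downstream (chr7:96612393-96612926). Fzd8 had none at this distance either, so 9 of 10 loci had an HFSC peak within 100 kb.

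**Figure D5:**
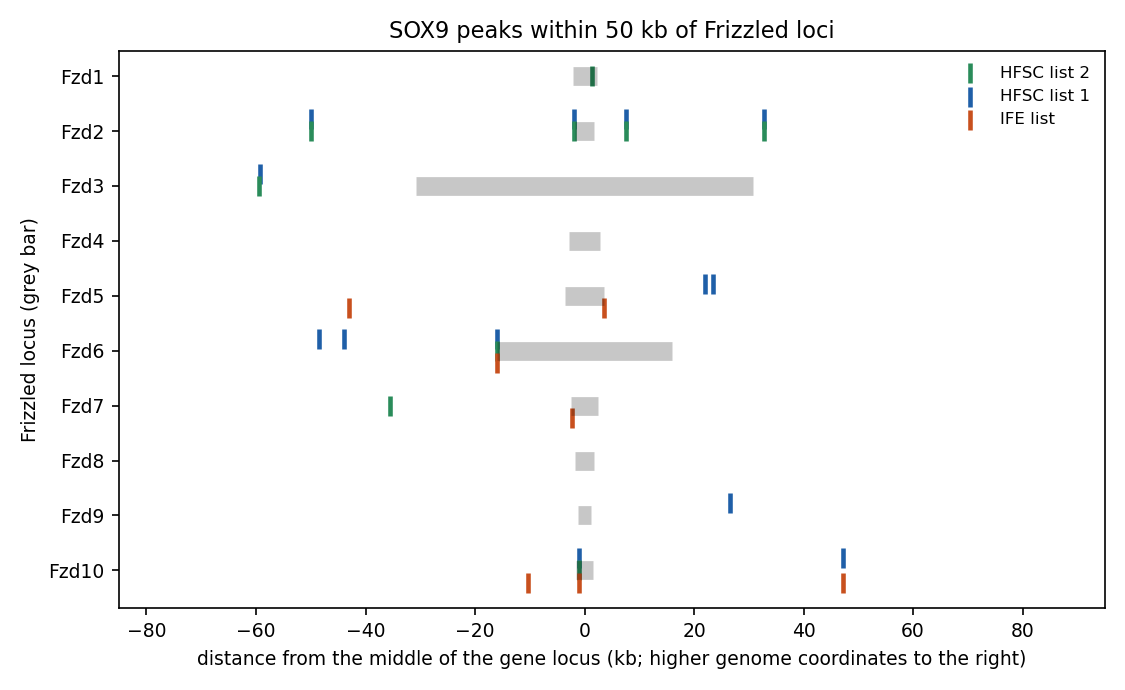
Centres of SOX9 peaks lying within 50 kb of each Frizzled locus, plotted as distance in kb from the middle of the locus (grey bar, to scale); blue and green ticks are the HFSC lists 1 and 2, orange ticks the IFE list. Fzd2 shows 4 places where both HFSC lists have a peak, Fzd6 and Fzd10 show all 3 lists at the gene, and Fzd4 and Fzd8 show none.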

How the data were processed

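Expression was deposited by the authors as FPKM per gene row for 4 RNA libraries, per the file headers. Build mm9 and the tools Cufflinks 1.0.3, TopHat, TopHat2 and Bowtie come from the submitters' processing notes, which give no roles. Peaks were deposited as 1 list of start and end positions per ChIP library; their caller and threshold were not given in the sources used here. Input libraries, 3 in number, were not used. Ratios of low FPKM values between libraries did not pile up at 1 step (at most 1.42% of 3170 genes in a bin), so depth is unknown and no count model was used. Small differences between FPKM values can come from depth, gene length or library preparation.

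Tests used limma 3.58.1 (R 4.3.3) on log2(FPKM + 1) of the 14455 genes whose mean reached 1 FPKM, with variances moderated along a mean trend. They were two-sided, with Benjamini-Hochberg adjustment over these genes and a threshold of 0.05. The fit with genotype alone has 2 residual degrees of freedom, that with the replicate block 1, so SEs lean on spread shared across genes. Same-numbered libraries share sex, age and treatment days per the labels, which pairs them; their deviations from group means had a correlation of 0.812 over genes, and genes are not replicates. How many mice a library holds is not stated, so p-values reflect only how these libraries vary, which may be technical. Library medians of the tested log2 values lay between 3.61 and 3.77.

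The members, gene lists and tests were chosen with earlier results of these data known. Named genes were all members, and of each list the 2 with the highest mean, up to 2 with the smallest p in the blocked fit and any past the threshold. Gene positions are locus spans of the table, which give no strand; strands and promoter letters come from RefSeq (GRCm38), which was not mixed with mm9. No protein sequences were used here. The fits were tested on simulated data. Alternatives were other pseudocounts, filters and scalings, the block, each library left out, and other windows and overlaps; 3 were added after seeing the data (libraries left out and the span trend in the replicate comparison, and a curved span trend).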

Additional observations from a re-analysis of the deposited data

Results flagged for a closer look

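The differences between genotypes in pair 1 and pair 2 pointed in opposite directions for 2 Frizzled rows. Fzd8 gave 0.26 in the male pair and -0.65 in the female pair on the log2(FPKM + 1) scale. The second Fzd10 row gave 0.077 and -0.71. Each pair holds 1 library per genotype, so the difference between the pairs was not tested.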

How the results depend on the processing

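With genotype alone, limma called 0 genes in the fit used and 7 with no filter on low values, none of them a Frizzled or listed gene. The replicate block called 41 genes, 1 Frizzled row and 1 listed WNT gene; with the block, 33 genes were called at a pseudocount of 0.1, 78 at 5, 53 at a mean FPKM of at least 5, 47 with median centring, 42 with a linear and 44 with a curved trend on locus span removed and 3 with quantile normalization. Of these fits, the pseudocount of 5 and the higher filter called 3 Frizzled rows, quantile normalization 0 and the others 1; each called 1 listed gene (Sostdc1) except quantile normalization with 0. The block with no mean trend or no filter called 0 genes. Leaving out 1 library called 2 to 41 genes without the block, with 0 Frizzled rows and 0 listed genes. It broke a pair, so part of the difference between replicates entered every value. The lowest and highest changes were then -0.28 and 1.06 for Fzd3, -0.41 and 0.30 for Fzd4, -0.088 and 0.55 for Fzd5, -0.17 and 0.65 for Fzd6, -0.92 and 0.54 for Fzd8, -0.56 and 0.22 and -0.85 and 0.22 for the Fzd10 rows, -0.98 and 0.37 for Dvl3, -0.16 and 1.20 for Myc, -1.06 and 0.63 for Gsk3b, -0.50 and 0.15 for Lrp5, -1.31 and 0.12 for Tcf7l2, -1.03 and 0.69 for Lrp6, -1.18 and 0.14 for Bcl9, and -1.495 and 0.25 for Celsr2. Without a turn of sign, Vangl1 lay between -0.78 and -0.0027, Lgr4 between -0.81 and -0.11, Lgr6 between -0.96 and -0.14, Nkd1 between -1.19 and -0.36 and Wnt4 between 0.28 and 0.76. Fzd1, Fzd2, Fzd7 and Fzd9 kept their sign in all 17 other fits and the 4 with a library left out. Between replicates, 7221 genes and 6 Frizzled rows were called, and 0 and 0 with no filter; leaving out 1 library called 0 to 6296 genes and 0 to 4 Frizzled rows. Fzd1 turned to -0.14 without the span trend and -0.071 with quantile normalization (-0.026 to 0.25 with 1 library left out), Fzd2 to -0.26 and -0.39 (-0.40 to 0.45), and Fzd9 to 0.027 at a pseudocount of 5 and 0.051 with quantile normalization (-1.30 to 1.22). Loci with an HFSC peak numbered 8 of 10, 4 within 10 kb, 4 with a peak shared by both lists at either overlap, and 6 with either list alone. The causes were not tested. Unknown depth limits the low members Fzd4, Fzd8 and Fzd10 most.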

Other observations

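Genes next to the Frizzled loci gave further values. Of 13 tested genes within 50 kb of a Frizzled locus, 0 were called between genotypes with the replicate block (limma, smallest adjusted p = 0.137) and 0 without it. Baz1b, which begins or ends 2.81 kb from Fzd9, stood at 18.8 and 7.70 FPKM in the controls and at 16.4 and 9.47 in the libraries labelled cKO, so it did not share the difference of Fzd9. Near Fzd2, 2810433D01Rik stood at 1.56 and 3.64 FPKM in the controls and 0.366 and 1.66 in the libraries labelled cKO (change -0.86, adjusted p = 0.347). Near Fzd7, Gm973 stood at 33.5 and 30.5 FPKM against 19.3 and 18.9 (change -0.71, adjusted p = 0.137), and both libraries labelled cKO lay below both controls. 5930412G12Rik, 150 bp from Fzd10, stood at 0.998 and 3.31 FPKM in the controls and 1.25 and 2.39 in the libraries labelled cKO; like Fzd10 it was higher in both replicate 2 libraries.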
